A study of Mus musculus with 20 samples.

Results

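Liver sinusoidal endothelial genes were followed in mouse liver through 3 members: Stab1, Stab2 and Pecam1. They were taken from the deposited count tables by position. Each table lists counts over intervals on the mouse genome, and intervals that overlapped exons of exactly 1 mouse gene by 50 bp or more were summed to that gene. This gave 5552 mouse genes, 2200 of which held enough counts to be tested, and all 3 members were among them. The study sequenced whole-liver RNA from 20 mice, 5 in each of 4 groups: anti-CD40 without antibiotics, control without antibiotics, anti-CD40 with antibiotics (ABX) and control with antibiotics. CD40 is a receptor of the tumour necrosis factor receptor family carried by antigen-presenting cells, endothelium and other cells. Each library came from 1 mouse. The labels name neither the strain, age or sex of the mice, nor the antibody clone, dose or time, nor the antibiotics.

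The walls of the liver sinusoids are lined by a fenestrated endothelium that lacks a continuous basement membrane and clears waste from the blood by receptor-mediated endocytosis. Stab1 and Stab2 encode stabilin-1 and stabilin-2, large scavenger receptors of this endothelium. Stabilin-2 is the main clearance receptor for circulating hyaluronan, and stabilin-1 is also made by some macrophages. Pecam1 encodes CD31, an adhesion molecule of endothelial junctions in all vessels, which leukocytes and platelets also carry.

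The counted stretches covered only small parts of the 3 genes, and the sequences below show what was measured. Coordinates are on mm10 (GRCm38), all 3 genes lie on the minus strand, and each sequence reads 5′ to 3′ along the transcript in the GENCODE M21 annotation. Stab1 (ENSMUSG00000042286.13, chr14:31139013-31168641) was counted over 1 interval of 110 bp, which held the 57 bp of exon 54 of the 69 exons of its main transcript and 34 bp that are exonic only in other transcripts. Stab2 (ENSMUSG00000035459.18, chr10:86841198-87008025) was counted over 2 rows of intervals that together held 588 bp of coding sequence in exons 7, 8, 12, 15 and 20 of 69. Pecam1 (ENSMUSG00000020717.19, chr11:106654217-106750628) was counted over 1 row that held 615 bp of coding sequence in exons 8 to 13 of 15. The coding lengths are 7713 bp for Stab1, 7677 bp for Stab2 and 2148 bp for Pecam1. The rows of Stab2 and Pecam1 also spanned 4872, 5425 and 13378 bp of intron. The Pecam1 row further held 2368 bp outside the gene, reaching to chr11:107018524. Counts of a row are not split by its parts. Bases in capitals lay inside a counted interval and bases in lower case did not.
Stab1 exon 54, chr14:31142958-31143014: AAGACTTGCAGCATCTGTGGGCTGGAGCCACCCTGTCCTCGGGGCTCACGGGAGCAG
Stab2 exon 7, chr10:86969748-86969873: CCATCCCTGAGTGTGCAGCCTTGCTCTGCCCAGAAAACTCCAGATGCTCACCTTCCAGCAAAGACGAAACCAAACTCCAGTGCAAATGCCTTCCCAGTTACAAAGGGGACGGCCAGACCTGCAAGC
Stab2 exon 15, chr10:86954146-86954271: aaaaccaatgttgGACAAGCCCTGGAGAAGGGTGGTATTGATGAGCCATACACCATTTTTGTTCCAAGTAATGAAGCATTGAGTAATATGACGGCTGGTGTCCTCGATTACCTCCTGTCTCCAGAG
Pecam1 exon 8, chr11:106684961-106685248: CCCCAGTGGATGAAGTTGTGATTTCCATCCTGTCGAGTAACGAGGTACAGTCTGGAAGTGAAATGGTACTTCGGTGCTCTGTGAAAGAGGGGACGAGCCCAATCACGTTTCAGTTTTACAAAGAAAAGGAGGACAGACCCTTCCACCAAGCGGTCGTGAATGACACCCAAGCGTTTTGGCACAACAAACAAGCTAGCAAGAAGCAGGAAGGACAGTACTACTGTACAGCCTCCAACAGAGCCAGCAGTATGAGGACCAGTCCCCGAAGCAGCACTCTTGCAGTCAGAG

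Over the 20 libraries these stretches collected 1298 counts for Stab1, 3098 for Stab2 and 5490 for Pecam1. Total counts per library lay between 5053014 and 7618736, and mitochondrial rows took between 20.9% and 35.1% of them. Levels are given as CPM (counts scaled to a common library size) after scaling by the trimmed mean of M-values (TMM). Because the genes were sampled over stretches of different length and kind, their levels are not compared with each other. A difference is called where the adjusted p of edgeR's quasi-likelihood test over the 2200 genes is below 0.05. Mouse 8, a control without ABX, stood apart from the other controls. The Stab2 and Pecam1 changes without ABX and the correlations between members within controls are therefore also given without it. Values of the gene lists and correlations of other genes within controls are given only with mouse 8 included. Whole liver is a mixture of cells, so fewer cells of a type and less RNA per cell cannot be told apart. The labelled tissue was checked by its hepatocyte markers: albumin (Alb), the main secreted protein of hepatocytes, averaged 60900 ± 9650 CPM in anti-CD40 livers without ABX, 160000 ± 9360 CPM in controls without ABX, 81100 ± 11100 CPM in anti-CD40 livers with ABX and 206000 ± 34500 CPM in controls with ABX (SD, n = 5 each).

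Stab2 fell in anti-CD40 livers, with and without ABX. Without ABX, Stab2 was at 6.6, 4.48, 6.27, 2.78 and 2.36 CPM in anti-CD40 mice 16 to 20, against 41.6, 43.6, 56, 45.3 and 43.5 CPM in control mice 6 to 10. Every anti-CD40 liver lay below every control. The share of all tested genes whose groups were separated in this way was not counted, while 60.6% of them were called in this comparison. The group means were 4.5 ± 1.94 CPM in anti-CD40 livers and 46.0 ± 5.73 CPM in controls (SD, n = 5 each). The fitted log2 fold change was -3.36 ± 0.31 (SE), a 10.2-fold lower level, with an edgeR adjusted p of 2.5e-08. An exact permutation test of the log2 CPM gave a two-sided p of 0.00794, the smallest that 5 against 5 mice can give.

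With ABX, Stab2 was at 8.11, 4.59, 1.73, 1.85 and 1.39 CPM in anti-CD40 mice 11 to 15, against 43, 48.6, 53.4, 55.9 and 44.5 CPM in control mice 1 to 5. The groups again did not overlap, in a comparison where 51.5% of all tested genes were called. The means were 3.53 ± 2.86 CPM in anti-CD40 livers and 49.1 ± 5.54 CPM in controls (SD, n = 5 each). The log2 fold change was -3.83 ± 0.33 (SE), a 14.2-fold lower level, with an edgeR adjusted p of 7.67e-09 and an exact permutation p of 0.00794. Averaged over both antibiotic arms the log2 fold change was -3.59, with a 95% confidence interval from -4.07 to -3.12 and an edgeR adjusted p of 3.88e-11. Without mouse 8 the value without ABX was -3.28, and with a term for the plate column given in the well labels it was -2.75 (edgeR adjusted p = 0.00323). In the ABX arm all anti-CD40 mice were in plate column 4 and all controls in column 3, so column and treatment cannot be told apart there. Without ABX the groups shared only column 4, with anti-CD40 mouse 16 and control mice 9 and 10. With mice 14, 15, 19 and 20 left out, which had the lowest Pecam1 levels, the averaged value was -3.21.

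**Figure D1:**
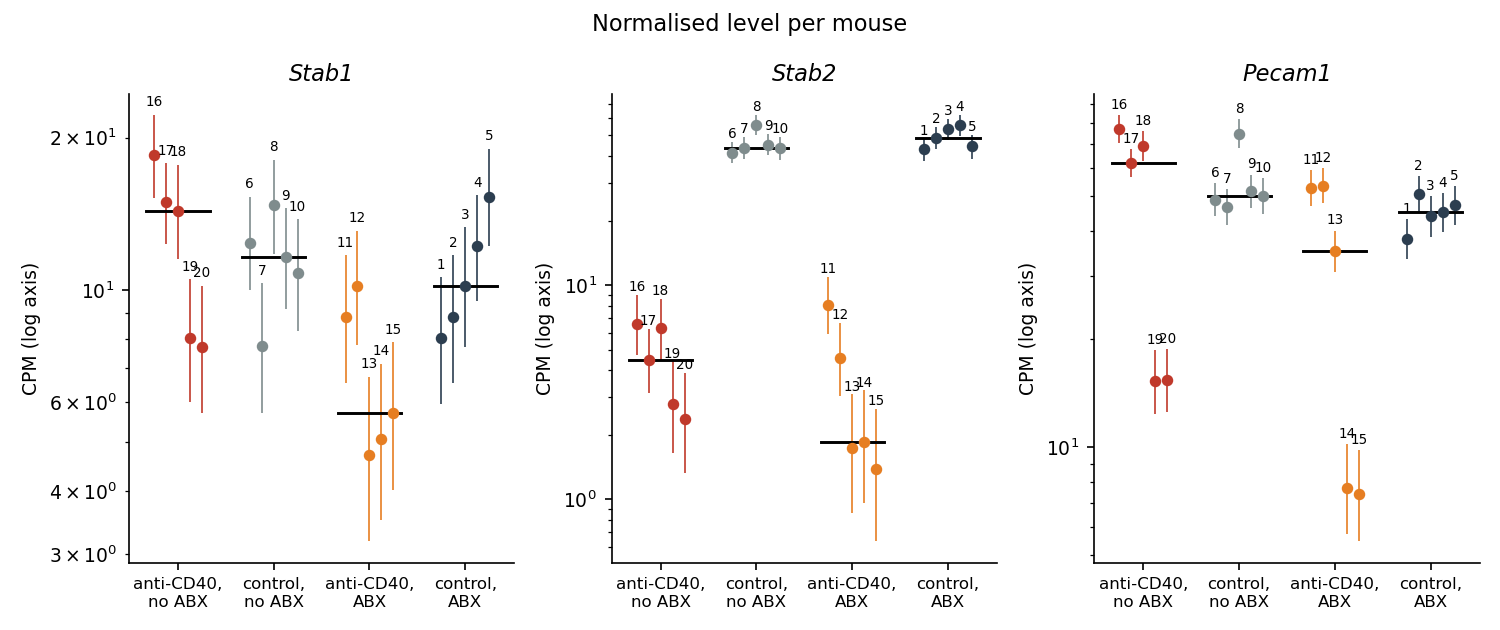
Normalised level of Stab1, Stab2 and Pecam1 in each mouse (CPM, log axis), with the mouse number above each point, the exact 95% Poisson counting interval as the error bar and the group median as a black line. All 10 anti-CD40 livers lie below all 10 controls for Stab2, while the Pecam1 panel shows mice 14, 15, 19 and 20 far below the other mice of their groups.

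The 2 rows that make up Stab2 were each low in anti-CD40 livers. The row with 462 bp of exon was at 2.48 ± 1.37 CPM in anti-CD40 livers and 32.6 ± 2.92 CPM in controls without ABX, and at 2.36 ± 1.7 CPM in anti-CD40 livers and 34.4 ± 3.34 CPM in controls with ABX (SD, n = 5 each). The row with 323 bp of exon was at 2.02 ± 1.01 CPM in anti-CD40 livers and 13.4 ± 3.42 CPM in controls without ABX, and at 1.17 ± 1.22 CPM in anti-CD40 livers and 14.6 ± 2.6 CPM in controls with ABX. Fragments over exon 8 (197 bp), which lies under both rows, are ambiguous between them.

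Of the 3 other rows that touch Stab2 exons but were not attributed to it, those nearer the 3′ end moved less. The row with 305 bp of Stab2 exon, which also covers an exon of Gm16270, had a log2 ratio of group means of -1.62 without ABX and -1.80 with ABX. The row with 29 bp of Stab2 exon and 1139 bp of intron had ratios of -0.90 and -0.97. The row with 8 bp of exon at the 5′ end, which also touches Gm16269, had ratios of -3.33 and -4.21. Rows wholly inside Stab2 introns collected few counts, and the fullest of them, 1247 bp long, held 16, 24, 5 and 29 counts over the 5 mice each of anti-CD40 without ABX, control without ABX, anti-CD40 with ABX and control with ABX. When every row with 1 bp or more of Stab2 exon and no other gene was added, the averaged log2 fold change became -2.08, since the row with 29 bp alone held 2364 counts.

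**Figure D2:**
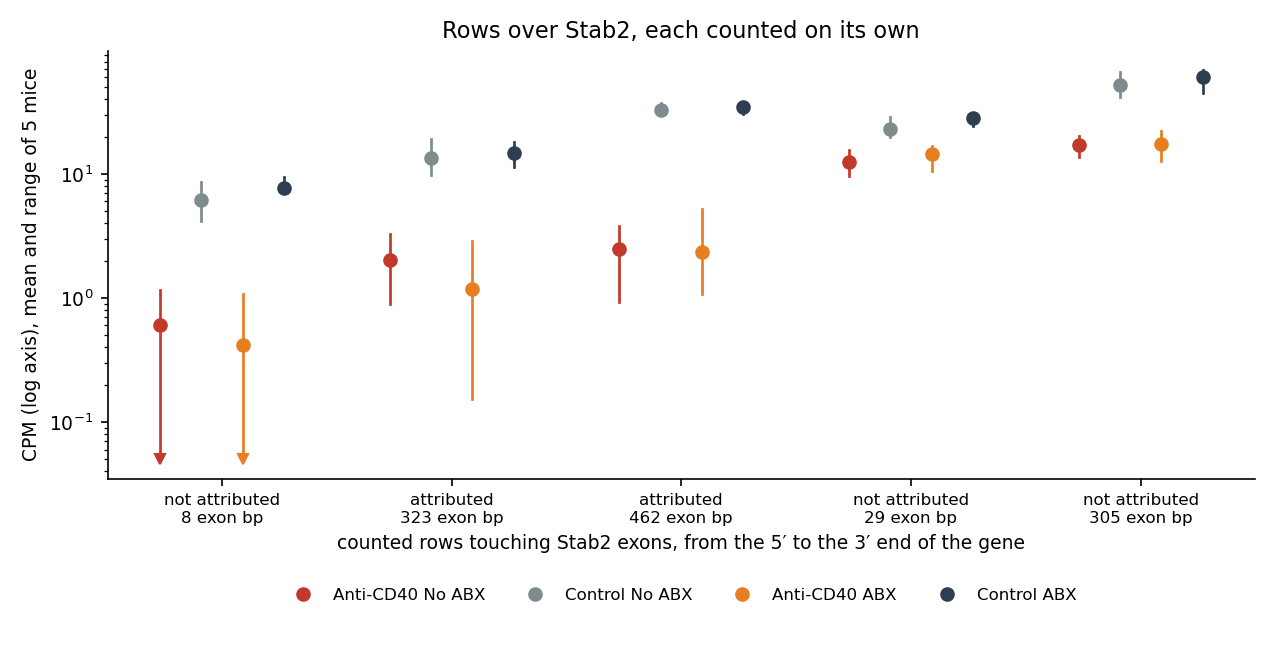
Level of each counted row that touches Stab2 exons (CPM, log axis), ordered along the gene from its 5′ to its 3′ end, with the mean (point) and the range (line) of 5 mice per group. A lowest value of 0 is drawn as a triangle at 0.05. The anti-CD40 ranges lie below the control ranges in every row, and the distance is smallest in the row with 29 bp of exon.

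Stab1, as counted over 91 bp of exon, did not follow Stab2. A row with 671 bp of Stab1 exon also covers exons of Nisch, Nt5dc2, Pbrm1 and Smim4 and was not attributed. Its log2 ratios of group means, anti-CD40 over control, were 0.10 without ABX and -0.09 with ABX. Without ABX, Stab1 was at 18.5, 14.9, 14.3, 8.04 and 7.72 CPM in anti-CD40 mice 16 to 20, against 12.4, 7.76, 14.7, 11.6 and 10.8 CPM in control mice 6 to 10. The groups overlapped, with 3 anti-CD40 livers at or near the top of the range and mice 19 and 20 at its lower end. The log2 fold change was 0.15 ± 0.25 (SE), with a 95% confidence interval from -0.37 to 0.66 and an edgeR adjusted p of 0.629. This interval does not reach the change seen in Stab2.

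With ABX, Stab1 was at 8.83, 10.2, 4.71, 5.08 and 5.71 CPM in anti-CD40 mice 11 to 15, against 8.02, 8.85, 10.2, 12.2 and 15.3 CPM in control mice 1 to 5. Mice 13, 14 and 15 lay below all controls, while mice 11 and 12 lay within the control range. The log2 fold change was -0.67 ± 0.27 (SE), a 1.59-fold lower level, with an edgeR adjusted p of 0.041 and an exact permutation p of 0.0476. This call was at the edge of the threshold. It was lost when any 1 of mice 3, 4, 5, 13, 14 or 15 was left out (adjusted p between 0.0538 and 0.129), with library totals in place of TMM (adjusted p = 0.299) and with the plate column as a term (adjusted p = 0.317). Column and treatment coincide in this arm and cannot be told apart from its mice alone. The column term was set by the mice without ABX and takes the column effect as equal in both arms.

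Among anti-CD40 livers, Stab1 averaged 6.91 ± 2.46 CPM with ABX and 12.7 ± 4.67 CPM without (SD, n = 5 each). The log2 fold change was -0.89 ± 0.26 (SE), with an edgeR adjusted p of 0.0247 and an exact permutation p of 0.0476, and the groups overlapped. The call was lost when any 1 of mice 13 to 18 was left out (adjusted p between 0.0559 and 0.0811), and a fit that added the plate column gave -1.43 with an adjusted p of 0.125. In controls, Stab1 averaged 10.9 ± 2.92 CPM with ABX and 11.4 ± 2.52 CPM without (log2 fold change -0.07, edgeR adjusted p = 0.92). The anti-CD40 effect on Stab1 differed between the arms by -0.81 ± 0.36 (SE) on the log2 scale, ABX minus no ABX, which did not pass adjustment over all genes (edgeR adjusted p = 0.172, 0.036 before adjustment).

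Pecam1 differed between mice of 1 group more than between groups. Without ABX, Pecam1 was at 76.9, 61.8, 69.1, 15.3 and 15.4 CPM in anti-CD40 mice 16 to 20, against 48.9, 46.7, 74.6, 51.7 and 50 CPM in control mice 6 to 10. Mouse 16 lay above all 5 controls, mice 17 and 18 above 4 of them and mice 19 and 20 below all of them. No anti-CD40 liver was near the group mean of 47.7 ± 30 CPM. With ABX, Pecam1 was at 52.8, 53.5, 35.2, 7.7 and 7.41 CPM in anti-CD40 mice 11 to 15, against 38, 50.6, 43.9, 45.1 and 47.1 CPM in control mice 1 to 5. Mice 11 and 12 lay above all 5 controls, and mice 13, 14 and 15 lay below all of them.

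No Pecam1 difference was called in any of the 6 comparisons (edgeR adjusted p between 0.408 and 0.829). The log2 fold change of anti-CD40 over control was -0.19 without ABX, with a 95% confidence interval from -1.27 to 0.90, and -0.53 with ABX, with an interval from -1.65 to 0.59. These intervals are wide, and they do not reach the change of Stab2. Without mouse 8 the value without ABX was -0.05, and with library totals in place of TMM it was 0.09. Without mice 14, 15, 19 and 20, which were picked by their Pecam1 level, the values turned to 0.33 without ABX, 0.05 with ABX and 0.19 in the average, where all mice gave -0.36. These are given without a test.

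Of the 3 members, 1 was called in anti-CD40 against control without ABX, where 60.6% of all tested genes were called, and 2 were called with ABX, where 51.5% were. In ABX against no ABX 1 of 3 was called among anti-CD40 livers, against 15.9% of all genes. Among controls 0 of 3 were called by edgeR, 0 at an unadjusted p below 0.05 and 0 by DESeq2, against 6.68% of all genes. The edgeR error of Pecam1 in controls (log2 fold change -0.28 ± 0.52, SE) rests on a spread fitted over all 4 groups. That spread includes the wide one of anti-CD40 livers. An exact permutation test of the log2 CPM of the controls alone gave Pecam1 a two-sided p of 0.0556. For the difference between the anti-CD40 effects of the antibiotic arms 0 of 3 were called by edgeR or DESeq2 and 1, Stab1, had an unadjusted p below 0.05. Of all genes 7.55% were called, and 527 of 2200 had an unadjusted p below 0.05. Stab2 averaged 49.1 ± 5.54 CPM in controls with ABX and 46.0 ± 5.73 CPM in controls without (log2 fold change 0.09, edgeR adjusted p = 0.891), and its anti-CD40 effects in the arms differed by -0.47 ± 0.46 (SE) on the log2 scale (adjusted p = 0.579).

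By mean level, Stab2 ordered as control with ABX, control without ABX, anti-CD40 without ABX and anti-CD40 with ABX, and the only neighbours in this order that differed by the test were the 2 in the middle, tested as anti-CD40 against control without ABX. Stab1 ordered as anti-CD40 without ABX, control without ABX, control with ABX and anti-CD40 with ABX, and its only called neighbours were the last 2. Pecam1 ordered as control without ABX, anti-CD40 without ABX, control with ABX and anti-CD40 with ABX. Of its neighbours, the middle 2 were not tested against each other and the others were not called.

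**Figure D3:**
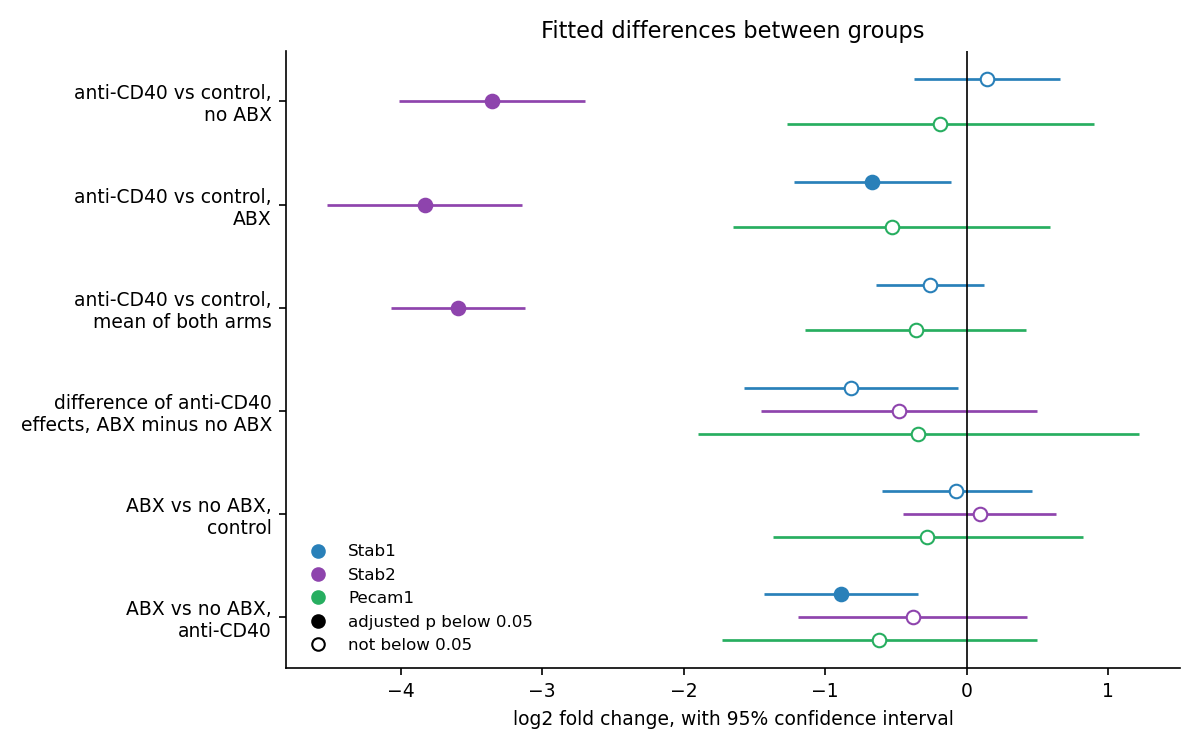
Fitted log2 fold change of Stab1, Stab2 and Pecam1 in the 6 comparisons, with the 95% confidence interval as a bar. Filled points have an edgeR adjusted p below 0.05 and open points do not. The Stab2 intervals for anti-CD40 against control all lie below -2.5, and the Pecam1 intervals all cross 0.

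The spread of the 3 genes was wider in anti-CD40 livers than in controls. For Pecam1 the SD of log2 CPM was 1.18 in anti-CD40 livers and 0.27 in controls without ABX, and 1.43 in anti-CD40 livers and 0.15 in controls with ABX. In each anti-CD40 group, 99.6% of the 1582 genes with a mean of 5 CPM or more had a smaller SD than Pecam1. For Stab2 the SD was 0.62 in anti-CD40 livers and 0.17 in controls without ABX, and 0.98 in anti-CD40 livers and 0.16 in controls with ABX. For Stab1 it was 0.55 in anti-CD40 livers and 0.33 in controls without ABX, and 0.48 in anti-CD40 livers and 0.36 in controls with ABX. No test of the difference in spread was made. Counting alone gives Pecam1 an SD between 0.08 and 0.15, so its spread in anti-CD40 livers was far beyond counting error. For Stab2 the counting SD was 0.29 in anti-CD40 livers and 0.085 in controls without ABX, and 0.38 in anti-CD40 livers and 0.087 in controls with ABX, so its counting error was itself larger in anti-CD40 livers. For Stab1 it lay between 0.17 and 0.23 in the 4 groups.

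The same mice were low for the 3 genes. Taken as deviations from the group mean of log2 CPM, mice 14, 15, 19 and 20 were at -1.51, -1.57, -1.29 and -1.28 for Pecam1, at -0.54, -0.88, -0.53 and -0.74 for Stab2, and at -0.36, -0.20, -0.56 and -0.61 for Stab1. Mouse 13 differed, at 0.63 for Pecam1 but at -0.62 for Stab2 and -0.46 for Stab1. Over the 20 mice the deviations correlated at a Pearson r of 0.82 between Stab2 and Pecam1, 0.74 between Stab1 and Stab2 and 0.71 between Stab1 and Pecam1. Within the 10 anti-CD40 mice these values were 0.83, 0.86 and 0.81. Within the 10 controls they were 0.71, 0.36 and 0.58, and without mouse 8 they were 0.42, 0.13 and 0.47. These are descriptions, given without a p, of values that share libraries, scaling and group means. The 4 low mice did not share a plate column: 14 and 15 were in column 4, with mice 9 to 13 and 16, while 19 and 20 were in column 5, with mice 17 and 18. Their total counts lay between 5675203 and 6211642, against 5053014 to 5919178 in the other 6 anti-CD40 libraries and 6196703 to 7618736 in controls.

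**Figure D4:**
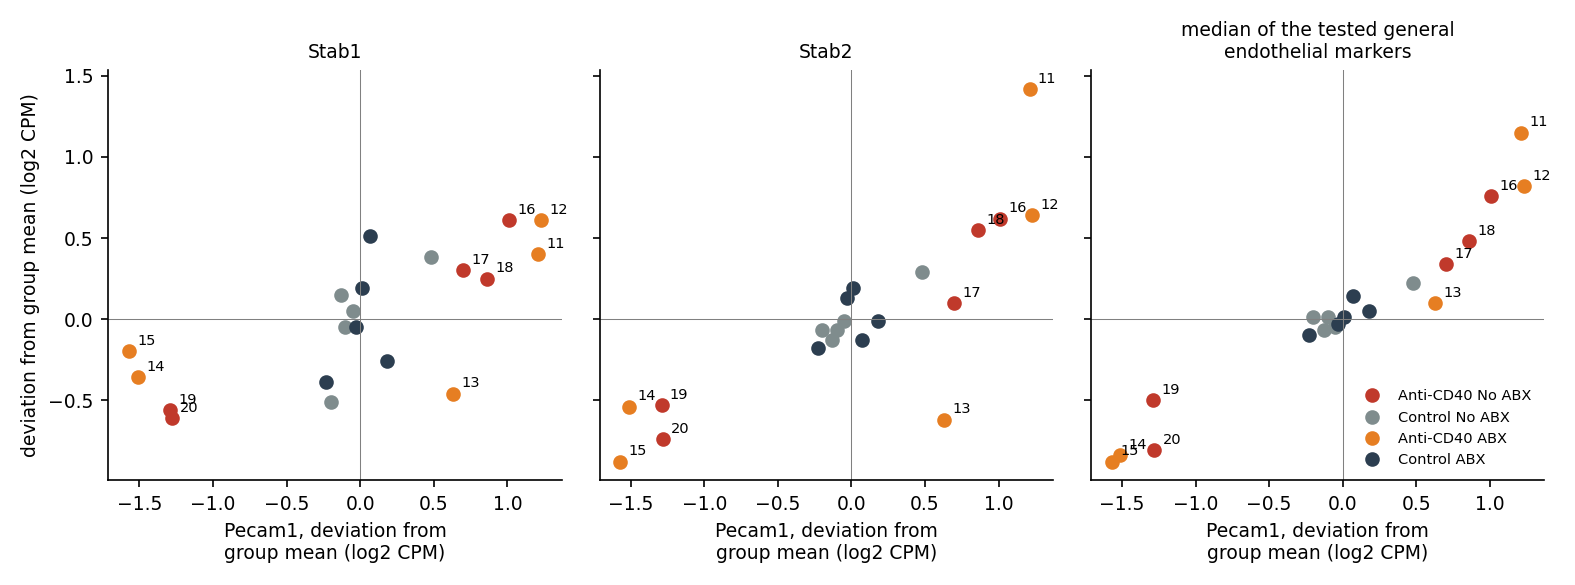
Deviation of each mouse from its group mean (log2 CPM) for Pecam1 on the horizontal axis, against the deviation of Stab1, of Stab2 and of the median of the tested general endothelial markers with a mean of 5 CPM or more, a median that includes Pecam1. Anti-CD40 mice carry their numbers. Mice 14, 15, 19 and 20 lie at the lower left of each panel and the controls gather around 0.

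The genes whose pattern was most like each member were ranked among 1581 genes with a mean of 5 CPM or more. For Stab2, the 5 with the highest r of log2 CPM over the 20 mice were Mrc1 (0.98), Adam23 (0.97), Ehd3 (0.97), F8 (0.96) and Col14a1 (0.95). For Pecam1 they were Podxl (0.96), Adgrf5 (0.96), Msr1 (0.89), Plcb4 (0.89) and Cemip2 (0.88). For Stab1 they were Adgrf5 (0.76), Msr1 (0.76), Pecam1 (0.75), Plcb4 (0.74) and Col3a1 (0.73). The 99th percentile of r over all ranked genes was 0.93 for Stab2, 0.80 for Pecam1 and 0.65 for Stab1.

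With the group means removed, the 5 nearest to Pecam1 were Col14a1 (0.96), Podxl (0.96), Adgrf5 (0.95), Sema6a (0.95) and Cavin2 (0.95). Within the 10 anti-CD40 mice these r lay between 0.97 and 0.98. Within the 10 controls they were 0.41, 0.17, -0.04, 0.61 and -0.22 in the same order. Podxl encodes podocalyxin, a sialomucin of the endothelial surface, Adgrf5 an adhesion G protein-coupled receptor of endothelium, and Cavin2 a coat protein of caveolae. The 5 nearest to Stab2 were Adam23 (0.94), Cemip2 (0.91), Ntn1 (0.89), Hspg2 (0.88) and Flt1 (0.88). Within the 10 controls these 5 were at 0.72, 0.64, 0.34, 0.60 and 0.43. Cemip2 encodes a transmembrane protein involved in hyaluronan breakdown, and Hspg2 encodes perlecan, a heparan sulfate proteoglycan of basement membranes. The 5 nearest to Stab1 were Ralb (0.87), Ccnd2 (0.77), Ecscr (0.76), Rcn3 (0.76) and Snx1 (0.75), and within the 10 controls they were at 0.86, 0.58, 0.63, 0.51 and 0.40.

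Genes that followed Pecam1 among the anti-CD40 mice included genes that rose, fell or were not called with anti-CD40. Podxl was at 36.3, 28.9, 26.6, 8.66 and 10.1 CPM in anti-CD40 mice 16 to 20 and at 32.8, 29.2, 16.3, 7.86 and 4.63 CPM in anti-CD40 mice 11 to 15, and its averaged difference from controls was not called (log2 fold change -0.36, edgeR adjusted p = 0.315). Ltbp4, which encodes a binding protein of latent transforming growth factor beta, was at 7.42, 5.76, 5.11, 0.928 and 0.946 CPM in anti-CD40 mice 16 to 20 and at 7.57, 7.99, 2.36, 0.154 and 0.154 CPM in anti-CD40 mice 11 to 15, against 23.7 to 45.5 CPM in the 10 controls. Ltbp4 fell (log2 fold change -3.17, adjusted p = 1.74e-06). Its deviations correlated with those of Pecam1 at 0.95 over the 20 mice but at -0.50 within the 10 controls. Gimap6, a GTPase of the immunity-associated family, was at 48.2, 37.5, 41.6, 25.2 and 22.1 CPM in anti-CD40 mice 16 to 20 and at 37.9, 52, 37.1, 16.2 and 18.2 CPM in anti-CD40 mice 11 to 15, against 11.9 to 21 CPM in controls. Gimap6 rose (log2 fold change 0.94, adjusted p = 0.000435) and correlated with Pecam1 at 0.91, and at 0.49 within the 10 controls. For each of these genes, the same 4 mice were the lowest of the anti-CD40 groups.

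Deviations at an r of 0.8 or more with those of Pecam1 were found in 45 of the 1581 ranked genes, or 2.85%. They were found in 7 of the 8 other general endothelial markers that were ranked (median r 0.88), in 3 of the 8 sinusoidal markers (median 0.72) and in 0 of the 6 hepatocyte markers (median -0.31). Of the ranked macrophage and Kupffer cell markers 1 of 4 reached it, Lyz2 (0.92), which encodes lysozyme of macrophages and neutrophils, and the only ranked stellate cell and fibroblast marker, the collagen gene Col3a1, was at 0.87. The part of these other cells in the spread of Pecam1 was not tested. Within the 10 controls alone, the 7 general endothelial markers had an r between -0.16 and 0.60 with Pecam1, Lyz2 0.84 and Col3a1 0.27. Bmpr2, the ranked general marker that did not reach 0.8 over the 20 mice (0.21), was at 0.83 within the controls.

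Most of the other sinusoidal endothelial markers that were tested fell. Of 35 genes in the list, 10 were attributed and 8 tested, Stab1, Stab2 and 6 others. In the average over both antibiotic arms 5 of these 6 fell and 1, Gfra1, was not called, with a median log2 fold change of -2.52 against 0.02 over all 2200 genes, of which 66.9% were called, 34.8% higher and 32% lower. Mrc1, the mannose receptor of sinusoidal endothelium and macrophages, was at 0.825, 0.384, 0.165, 0.155 and 0 CPM in anti-CD40 mice 16 to 20, against 11.1 to 19.8 CPM in controls without ABX. With ABX, Mrc1 was at 1.08, 1.53, 0.157, 0.308 and 0 CPM in anti-CD40 mice 11 to 15, against 11.7 to 20.3 CPM in controls, and its averaged log2 fold change was -5.19 (edgeR adjusted p = 1.13e-12). Mrc1 had enough counts to be tested only through the controls. Ehd3, an endocytic recycling protein, fell to 10.2 ± 2.81 CPM in anti-CD40 livers, against 83.2 ± 23.5 CPM in controls without ABX (SD, n = 5 each). With ABX it fell to 10.9 ± 5.28 CPM in anti-CD40 livers, against 116 ± 22.1 CPM in controls.

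Adam23, a member of the disintegrin family, fell with an averaged log2 fold change of -2.96 (edgeR adjusted p = 1.19e-06), and F8, the gene of coagulation factor VIII, which the liver sinusoidal endothelium makes, with one of -2.08 (adjusted p = 6.34e-08). Gata4, a transcription factor that specifies sinusoidal endothelium, fell by 0.43 on the log2 scale (adjusted p = 0.00423), called without ABX (-0.75) but not with it (-0.12), and the difference between these effects was 0.63 (adjusted p = 0.132). The list's summed level lay between 571 and 616 CPM in anti-CD40 livers and between 814 and 1000 CPM in controls without ABX. With ABX it lay between 518 and 618 CPM in anti-CD40 livers and between 605 and 815 CPM in controls. Gfra1, a receptor subunit of glial cell line-derived neurotrophic factor, made up most of this sum. With the 2 members included the count was 6 of 8 lower, and again 6 of 8 without mice 14, 15, 19 and 20, with a median of -2.04. Those mice were picked by their low Pecam1 level. With library totals 5 of 8 were lower, Gata4 was not called (-0.14, adjusted p = 0.331) and Gfra1 was called higher (0.22, adjusted p = 0.00633). With the plate column as a term 5 of 8 were lower, and Gata4 was not called (-0.31, adjusted p = 0.392).

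General endothelial markers included genes that fell and genes that rose. Of 65 genes, 15 were attributed and 12 tested, and in the average of both arms 4 fell, 3 rose and 5 were not called, where over all genes 32% were lower and 34.8% higher. Their median log2 fold change was -0.36, but -0.06 with library totals and 0.10 without mice 14, 15, 19 and 20. These mice were picked by their low Pecam1 level, and Pecam1 and most markers ranked with it vary together. The last value is therefore no test of the list. Adgrl4, an endothelial adhesion G protein-coupled receptor, fell by 2.88 on the log2 scale (edgeR adjusted p = 5.83e-07), Flt1, the receptor VEGFR1, by 1.62 (adjusted p = 3.8e-05), the orphan receptor gene Tie1 by 1.43 (adjusted p = 1.22e-05) and Bmpr2, a bone morphogenetic protein receptor, by 0.31 (adjusted p = 5.65e-05). With library totals Bmpr2 was not called (-0.01, adjusted p = 0.893). Adgrl4 averaged 0.52 CPM without ABX and 0.632 CPM with it in anti-CD40 livers, and had enough counts to be tested only through the controls. Gimap6, Nrp2 (0.93, adjusted p = 0.000938), a co-receptor of vascular endothelial growth factors, and Heg1 (0.55, adjusted p = 0.0128), a protein of endothelial junctions, rose. Those not called were Pecam1, Podxl, Adgrf5, Notch4 and the transcription factor gene Fli1. With the plate column as a term 1 fell, Adgrl4, and 2 rose, Gimap6 and Nrp2.

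**Figure D5:**
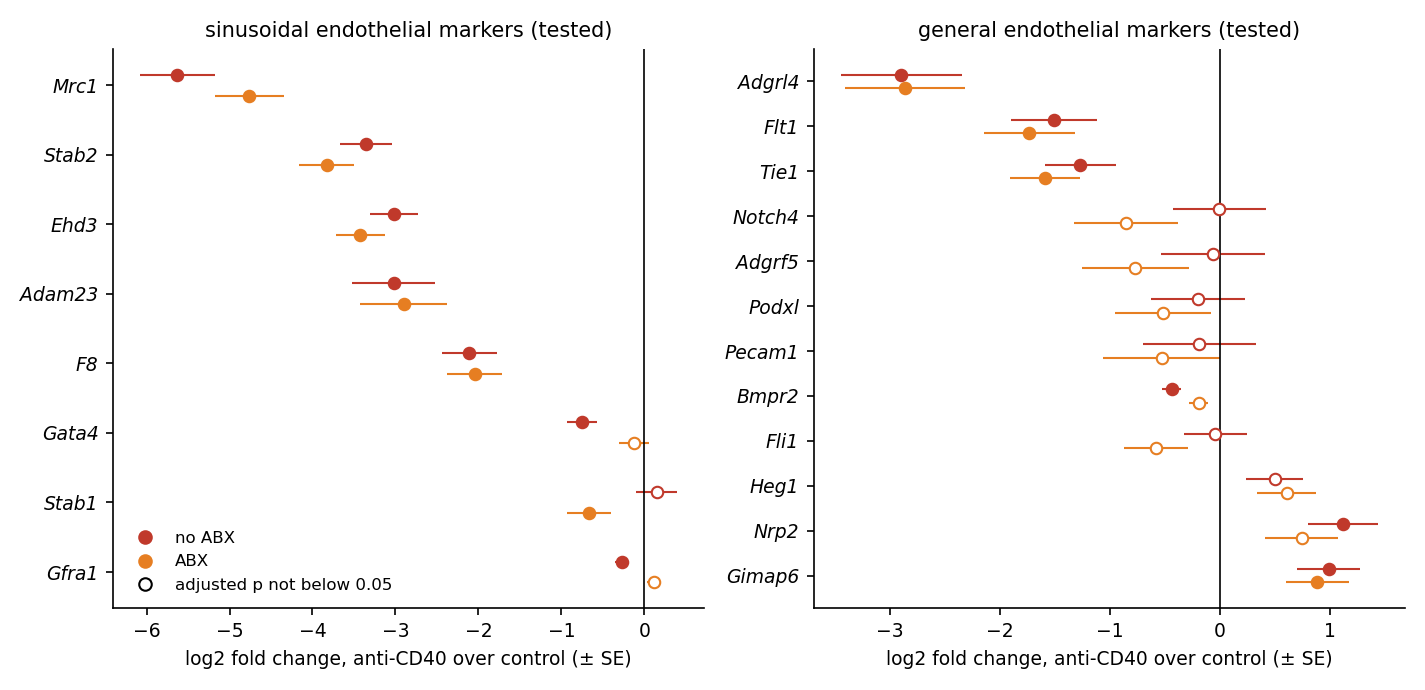
Log2 fold change of anti-CD40 over control for the tested sinusoidal and general endothelial markers, without ABX (red) and with ABX (orange), with the SE as a bar. Filled points have an edgeR adjusted p below 0.05. The sinusoidal markers reach from 0.15 (Stab1 without ABX) down to -5.63 (Mrc1 without ABX), and the general markers lie on both sides of 0.

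Genes with roles close to those of the members were described by lists, and the values given for them are log2 fold changes averaged over both antibiotic arms. Over all 2200 genes 66.9% were called in this average, 34.8% higher and 32% lower. The list counts here and below are small and stand beside that share. Of the scavenger and endocytic receptors 11 of 44 were tested, with 5 lower and 2 higher. Besides Stab2 and Mrc1, Fcgrt, the neonatal Fc receptor that recycles IgG and albumin, fell by 1.14 (edgeR adjusted p = 1.46e-13), Msr1, a class A scavenger receptor, by 0.71 (adjusted p = 0.00636) and Asgr1, an asialoglycoprotein receptor of hepatocytes, by 0.27 (adjusted p = 0.00098), while with library totals Msr1 was not called (-0.41, adjusted p = 0.112) and the sign of Asgr1 was turned (0.02). Sorl1, a sorting receptor, rose by 2.31 (adjusted p = 1.1e-06) and Marco, a macrophage scavenger receptor, by 1.43 (adjusted p = 0.0071). Sorl1, at means of 1.4 CPM in controls without ABX and 1.68 CPM with it, had enough counts to be tested only through anti-CD40 livers. Of the genes of hyaluronan metabolism and binding 5 of 36 were tested. Itih2 (-0.95, adjusted p = 4.89e-12), a heavy chain that hyaluronan can carry, and Habp2 (-0.38, adjusted p = 1.59e-05), a plasma hyaluronan-binding protease, fell with Stab2, Ambp (0.69, adjusted p = 2.06e-06), the light chain precursor, rose, and Cemip2 was not called (-0.50, adjusted p = 0.0936). With library totals Habp2 was not called (-0.09, adjusted p = 0.201).

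Of the genes of leukocyte adhesion and transmigration, which include Pecam1, 7 of 47 were tested, with 5 higher and 1 lower. Cd47, a ligand of the phagocyte receptor SIRP-alpha, rose by 1.70 (edgeR adjusted p = 1.66e-17), Vav1, an exchange factor of leukocytes, by 1.84 (adjusted p = 4.1e-07), the actin linker gene Vcl by 0.82 (adjusted p = 9.64e-11), Ezr by 1.29 (adjusted p = 0.00194) and Vav2 by 0.21 (adjusted p = 0.00446), which was not called without mice 14, 15, 19 and 20 (0.09, adjusted p = 0.235). Cd99l2, an adhesion molecule used by leukocytes crossing vessel walls, fell by 0.26 (adjusted p = 0.0165), with a turned sign under library totals (0.03). Of the basement membrane and vessel wall genes 9 of 32 were tested, with 6 lower and 2 higher. Fbln5, an elastic fibre protein, fell by 4.13 (adjusted p = 2.97e-12), the laminin genes Lama3 by 2.73 (adjusted p = 1.46e-06) and Lama1 by 2.54 (adjusted p = 5.89e-05), and Nid2 by 1.02 (adjusted p = 9.57e-08). Fbln5, Lama3 and Lama1 averaged between 0.231 and 1 CPM in the anti-CD40 groups. They had enough counts to be tested only through the controls. Col4a2 (1.11, adjusted p = 0.000333) and Lamc1 (0.82, adjusted p = 0.000435), both of basement membranes, rose.

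Of the zonated endothelial genes 3 of 24 were tested, and Ltbp4, Kit (-0.84, edgeR adjusted p = 0.0229), a receptor of stem cell factor, and Msr1 fell, though Kit was not called with library totals (-0.53, adjusted p = 0.139) or without mice 14, 15, 19 and 20 (-0.46, adjusted p = 0.175). Of the angiogenic ligands and receptors 10 of 51 were tested, with 4 higher and 5 lower. Fgfr2, a fibroblast growth factor receptor, rose by 1.56 (adjusted p = 4.04e-13) and the ligand gene Pdgfb by 1.59 (adjusted p = 0.000146), while the guidance genes Ntn1 and Sema6a fell by 2.25 (adjusted p = 1.49e-05) and 1.63 (adjusted p = 1.71e-05).

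Markers of other cell types moved in the same comparison, where 34.8% of all genes were called higher and 32% lower. Without ABX 60.6% of all genes were called, and with ABX 51.5%. Of 36 macrophage and Kupffer cell markers 5 were tested, and 4 rose and 1 fell. Adgre1, the gene of F4/80, fell by 2.52 (edgeR adjusted p = 1.39e-07), while Lyz2 rose by 2.30 (adjusted p = 1.44e-06), Ms4a7 by 2.16 (adjusted p = 5.57e-09) and Spic by 1.89 (adjusted p = 6.64e-08). Their summed level lay between 297 and 1140 CPM in anti-CD40 livers and between 119 and 342 CPM in controls without ABX. With ABX it lay between 314 and 929 CPM in anti-CD40 livers and between 116 and 181 CPM in controls. Lyz2 made up most of this sum, with means of 612 CPM without ABX and 547 CPM with it in anti-CD40 livers. Ms4a7, at means of 0.935 and 0.787 CPM in controls, had enough counts to be tested only through anti-CD40 livers. Of 30 stellate cell and fibroblast markers 4 were tested and 3 fell in the average, with 3 lower with ABX and 0 called without it. Their summed level lay between 18.9 and 132 CPM in anti-CD40 livers and between 104 and 218 CPM in controls without ABX. With ABX it lay between 7.1 and 53.5 CPM in anti-CD40 livers and between 79.7 and 188 CPM in controls. Col3a1 made up most of this sum, with means of 65.2 CPM without ABX and 24.4 CPM with it in anti-CD40 livers.

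Of 23 lymphocyte markers 4 were tested and 3 rose, Cd8a (3.65, edgeR adjusted p = 6e-08), Cd8b1 (2.85, adjusted p = 4.93e-07) and Ighm (0.40, adjusted p = 0.00332), which was called with ABX (0.71, adjusted p = 0.00068) but not without it (0.09, adjusted p = 0.649). Cd8a held 12 counts in controls without ABX and 2 with it, and Cd8b1 held 11 and 8. Both had enough counts to be tested only through anti-CD40 livers. The summed level of the 4 lymphocyte markers lay between 22.2 and 40.1 CPM in anti-CD40 livers and between 16.8 and 32 CPM in controls without ABX. With ABX it lay between 33.3 and 44.1 CPM in anti-CD40 livers and between 17.6 and 23.3 CPM in controls. Ighm made up most of this sum. Of 21 platelet and erythroid markers 2 were tested and 0 called by edgeR or DESeq2, and 0 had an unadjusted p below 0.05. Without mice 14, 15, 19 and 20 the platelet integrin gene Itga2b was called higher (0.74, edgeR adjusted p = 0.0472), as it was with the plate column as a term (2.19, adjusted p = 0.02). Of 24 hepatocyte markers 6 were tested, with 4 lower and 2 higher, and of 16 cholangiocyte and mesothelial markers 2, with 1 lower and 1 higher. None of the lymphatic endothelial or the monocyte and neutrophil markers was tested. The part of these cell types in the changes of Stab1, Stab2, Mrc1 and Pecam1, which some of them also express, was not tested.

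Stab1 and Stab2 are related receptors whose deviations varied together among anti-CD40 mice (r 0.86, against 0.36 among controls) but whose responses to anti-CD40 differed. The stretches just upstream of their gene starts are therefore shown. Each is the 250 bases before the RefSeq start on GRCm38.p6, minus strand, read 5′ to 3′, with GGAA and its reverse complement TTCC, the core letters that ETS factors bind, in capitals.
Stab1, chr14:31168642-31168891: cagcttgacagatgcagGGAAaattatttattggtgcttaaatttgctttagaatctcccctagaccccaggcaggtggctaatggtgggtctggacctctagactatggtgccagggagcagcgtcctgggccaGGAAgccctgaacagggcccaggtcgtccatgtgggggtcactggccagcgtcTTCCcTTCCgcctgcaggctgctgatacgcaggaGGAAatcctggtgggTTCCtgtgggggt
Stab2, chr10:87007943-87008192: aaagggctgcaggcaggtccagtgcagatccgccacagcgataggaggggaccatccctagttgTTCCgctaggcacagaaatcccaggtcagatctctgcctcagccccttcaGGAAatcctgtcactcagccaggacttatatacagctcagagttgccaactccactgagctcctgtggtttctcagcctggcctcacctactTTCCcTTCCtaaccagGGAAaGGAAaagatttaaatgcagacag

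In GENCODE M21 the gene Stab2 starts further upstream, so the last 83 bases of its stretch, with 4 of the matches, lie inside the gene by that annotation. Each stretch held 6 matches to GGAA on both strands. At least as many were found in 8.7% of 32851 promoters of the same length, where the median was 3 and 93.4% held at least 1. The letters GATAA, a form of the sites of GATA factors, were searched on both strands. They were in neither stretch, and 22.6% of all promoters held them. The shorter letters GATA are in both printed stretches and were not counted over all promoters.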

How the data were processed

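The data are whole-liver RNA-seq counts from 20 mice, 5 in each of 4 groups taken from the sample labels. Reads were trimmed with Trimmomatic 0.38, aligned with HISAT2 2.1.0 to mm10 and counted with featureCounts 1.5.0-p2, per the submitters' processing notes. The deposited counts are whole, unnormalised fragment counts per row, and per the file headers they were made with a human exon annotation (GRCh38 release 93), with no strand setting, so the row names do not describe the mouse sequence counted. Rows were therefore read by position, and those that overlapped exons of exactly 1 mouse gene (GENCODE M21, bedtools 2.31.1) by 50 bp or more were summed. This kept 7463 of 58395 rows and 46.4% of all counts, and 52.3% of counts lay in rows over several mouse genes. Fragments over 2 rows were not counted, by the program's default, and strand was not used, so antisense transcripts cannot be told apart.

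Genes were filtered with filterByExpr and tested with edgeR 4.0.16 (quasi-likelihood, robust, TMM factors, library sizes over all rows, 1 mean per group, 20 libraries, Benjamini-Hochberg over 2200 genes). The biological coefficient of variation was 16.7%. Log2 CPM used a prior count of 2. DESeq2 1.42.0, other overlaps and scalings, no filter, the plate column as a term and leaving out each mouse were alternatives, and leaving out mice 14, 15, 19 and 20 was chosen after seeing the data. The edgeR script was tested on simulated data. Poisson intervals of single libraries cover counting error only, and those of fold changes rest on the spread between mice. Sequences came from GENCODE M21 transcripts and RefSeq (GRCm38.p6), where Stab1 and Stab2 were matched. The members and 16 gene lists were chosen with earlier results of these data known, and some genes are not reported here and were left out of the lists. Named genes were the members, up to 6 tested genes per list with the smallest p in the average over both arms, and the 5 genes most like each member. Heg1, Fli1, Notch4, Gfra1 and Igf2r were named after their values were seen.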

Additional observations from a re-analysis of the deposited data

Results flagged for a closer look

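Mouse 8, a control without ABX, was far from the other 4 mice of its group for 2 of the 3 genes. Its Pecam1 level was 74.6 CPM, against 46.7 to 51.7 CPM in the others, and its gap to the nearest mouse was 0.784 of the group's log2 range. Its Stab2 level was 56 CPM, against 41.6 to 45.3 CPM, with a gap of 0.716 of the range, where the limit for 5 samples is 0.71. Of the 12 groups of values examined these 2 passed the limit, and chance passes about 1 in 20.

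For Igf2r and Fgfr2 of the lists the anti-CD40 effect differed between the antibiotic arms by the interaction test of edgeR. The effect on Igf2r, a receptor that sorts lysosomal enzymes, was higher with ABX than without by 0.68 on the log2 scale (adjusted p = 0.0134). For Fgfr2 the difference was -0.75 (adjusted p = 0.0187). When the plate column was added to the edgeR fit, no gene of the 2200 was called in this comparison, and DESeq2 without it called 200.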

How the results depend on the processing

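The lower Stab2 level in anti-CD40 livers was called under every alternative run, with log2 fold changes between -4.37 and -2.04. The smallest size came from the 1 bp overlap. Of 700 alternative values over all results 653 kept their direction and their side of the threshold or, for counts of genes, stayed within 1.5 times. With library totals in place of TMM the median of all genes moved to 0.32 in the average over both arms, against 0.02. Pecam1 without ABX was then 0.087, Stab1 in the average 0.044, Stab2 in ABX against no ABX among controls -0.042, and Stab1 with ABX -0.321 and not called. Stab1 with ABX was also not called with no filter (-0.69) or without mice 14, 15, 19 and 20 (-0.484), and Stab1 in ABX against no ABX among anti-CD40 livers was not called when only those libraries were used (-0.88). With the 1 bp overlap, Stab2 in the last comparison was 0.088. The causes were not tested.

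Adding the plate column, which anti-CD40 and control mice share only in part without ABX and not at all with it, left 735 called genes without ABX, 690 with ABX, 877 in the average, 0 for the difference of effects, 77 for ABX in controls and 5 for ABX in anti-CD40 livers, against 1333, 1133, 1471, 166, 147 and 350. Pecam1 was then 0.596 without ABX and 0.112 in the average, and Stab1 was 0.056 in the average. Stab1 was no longer called with ABX (-0.612) or in ABX against no ABX among anti-CD40 livers (-1.426). Of the lists, the zonated genes then had 1 lower, against 3, the hyaluronan genes 2, against 3, the basement membrane genes 3, against 6, the scavenger receptors 3, against 5, the angiogenic genes 1, against 5, the general endothelial markers 1, against 4, the stellate cell markers 0, against 3, and the hepatocyte markers 2, against 4, while 3 leukocyte adhesion genes were higher, against 5, 1 lymphocyte marker, against 3, and 1 platelet and erythroid marker, against 0. Without mice 14, 15, 19 and 20 the difference of effects held 79 called genes and ABX among anti-CD40 livers 170.

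Leaving out 1 mouse at a time, Stab1 ranged from -0.039 to 0.265 without ABX, from -0.852 to -0.512 with ABX, from -0.226 to 0.029 for ABX in controls and from -1.049 to -0.696 for ABX in anti-CD40 livers. Pecam1 without ABX ranged from -0.443 to 0.018, positive without mouse 19 or 20. The counts ranged from 88 to 194 for the difference of effects, from 89 to 157 for ABX in controls and from 225 to 380 for ABX in anti-CD40 livers. The first of these counts moved by over 1.5 times without mouse 4, 5, 10, 14 or 18, the count for ABX in controls without mouse 4 or 10, and the count for ABX in anti-CD40 livers without mouse 14 or 18. Comparisons over all 4 groups have no fit on fewer libraries. No paired analysis was possible because the groups share no mouse numbers. Depth limits Stab1, with 1298 counts over 20 libraries on 91 bp of exon, and in anti-CD40 livers Stab2, with 146 counts without ABX and 104 with it.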
